A study of Homo sapiens with 4 samples.

Results

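BHLHE40 (also known as DEC1) is a transcriptional repressor of the mammalian circadian clock, and it was examined here together with the core clock genes. Probes were taken by gene symbol from the platform annotation, and 8 of the 10 genes sought had a probe under their symbol, 1 probe each, out of 17778 genes in all. These were BHLHE40, its paralog BHLHE41, CLOCK, ARNTL, PER1, PER2, NR1D1 and DBP. CRY1 and CRY2 were not analysed here. The group was assembled because BHLHE40 stood among the largest rises with berberine in these same arrays, so the differences of all 8 genes below are a description and carry no test.

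The series concerned the viability of HepG2 cells, a human hepatocellular carcinoma line, given berberine, a plant alkaloid. RNA of 2 samples treated with 26.95 µM berberine for 24 hours and of 2 untreated control samples was hybridised to 4 one-colour arrays (Cy5), all from cells grown in the same serum-supplemented medium. The sample descriptions name instead an MDI differentiation protocol of 48 hours in both groups, with 13.47 µM berberine in the treated one, and this conflict was not resolved. Whether the replicates were separate cultures is not stated, so the spread behind every error and p-value may be technical. Each SE is the moderated one of limma, which also borrows variance from other genes.

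Probe identifiers are those of a mouse array while the labels give human cells. What is given under a gene's name is thus a mouse probe's signal. The 528 genes named as mouse olfactory receptors gave a scale for background signal. On the log2(normalized intensity + 1) scale, used throughout for levels, the median of these genes was 6.05 and the 95th percentile 9.24. Of 12 measured hepatocyte markers (15 sought), 0 had a mean level above that percentile, as 1626 of all 17778 genes did. So few genes are that bright that little is read from the count. Albumin (ALB) read 8.10 and 8.20 with berberine and 8.65 and 8.46 in control samples, and the probe named AFP, for the fetal plasma protein alpha-fetoprotein, read 4.67 and 4.93 with berberine and 4.51 and 4.89 in control samples. These marker levels, read from mouse probes, do not settle the identity given by the labels.

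The clock is a feedback loop. The bHLH-PAS proteins CLOCK and ARNTL (now called BMAL1) pair, bind E-box sequences and activate genes for the PER and CRY proteins, which return to repress the pair. BHLHE40 and BHLHE41 bind the same E-boxes and repress from them, NR1D1 (REV-ERB alpha) represses ARNTL, and DBP carries the rhythm to D-box output genes. In liver this loop is known for timing lipid, glucose and bile acid metabolism, and BHLHE40 is also known to respond to hypoxia, serum and other acute signals.

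Because the E-box ties BHLHE40 to its targets, the 250 bases upstream of each start site were searched for it in human RefSeq promoters (GRCh38.p14), where all 8 genes were matched. The 3 genes with the letters CACGTG are shown, on the strand of the gene, with the E-box in capitals.
BHLHE40 (chr3:4979187-4979436, plus strand): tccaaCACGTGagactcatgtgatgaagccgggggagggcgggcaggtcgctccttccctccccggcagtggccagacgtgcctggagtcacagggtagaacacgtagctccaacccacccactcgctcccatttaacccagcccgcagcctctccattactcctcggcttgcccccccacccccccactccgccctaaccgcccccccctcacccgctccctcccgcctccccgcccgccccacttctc
BHLHE41 (chr12:26125038-26125287, minus strand): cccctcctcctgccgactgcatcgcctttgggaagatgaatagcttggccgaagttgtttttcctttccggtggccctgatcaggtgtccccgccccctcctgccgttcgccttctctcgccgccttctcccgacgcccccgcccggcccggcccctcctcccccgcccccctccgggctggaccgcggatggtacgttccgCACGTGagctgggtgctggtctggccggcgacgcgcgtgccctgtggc
PER1 (chr17:8152405-8152654, minus strand): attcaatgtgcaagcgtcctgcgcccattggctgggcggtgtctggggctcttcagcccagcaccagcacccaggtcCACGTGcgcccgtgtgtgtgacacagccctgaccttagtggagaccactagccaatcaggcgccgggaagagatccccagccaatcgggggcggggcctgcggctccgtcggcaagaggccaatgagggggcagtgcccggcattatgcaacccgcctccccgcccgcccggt
The first base of the E-box lay 245 bases before the start of BHLHE40, 48 before BHLHE41 and 173 before PER1. The BHLHE40 gene itself lies on chromosome 3, from 4979437 to 4985323. CACGTG, which reads the same on both strands, occurred in 6.34% of all 35116 promoter windows of this length. The cAMP response element TGACGTCA, the D-box TTATGTAA and the ROR element ANTAGGTCA, searched on both strands, were found in 0 of the 8 genes and in 1.65%, 0.834% and 0.43% of all windows. As the E-box alone matched in these genes, no overlap between motifs arose. A match describes the human sequence and not a bound site, and the array probes are of mouse design.

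BHLHE40 had a much higher signal with berberine. Its deposited intensities were 783 and 951 in the berberine samples, against 163 and 130 in the control samples. After quantile normalization it read 9.87 and 9.90 with berberine and 7.17 and 7.19 in control samples. Both treated samples lay far above both controls, and the samples of each group nearly coincided. The difference was 2.70 on the log2 scale (SE 0.105), a 6.51-fold higher signal. Group means were 9.88 ± 0.02 for berberine and 7.18 ± 0.01 for control (SD, n = 2 each). Most of that SE is variance borrowed from other genes, as the pooled replicate SD of BHLHE40 was 0.015. The ratio of the deposited mean intensities, 867 with berberine over 146.5 in control samples, was 5.92. Among all 17778 genes this was the rise of rank 8 by size. As bulk RNA was measured, more RNA per cell and a larger share of cells with the transcript cannot be told apart.

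The level of BHLHE40 moved out of the background range with treatment. Its berberine mean exceeded the level of 97.9% of olfactory receptor genes, and its control mean exceeded 71.6% of them. The fold is therefore set against control signals that cannot be separated from background by this scale. Replicates agreed more closely after normalization than as deposited. Only 1.23% of genes had a smaller pooled replicate SD than BHLHE40 after quantile normalization. On the deposited scale the difference was 2.56, with an SE of 0.395 that likewise includes borrowed variance.

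**Figure D1:**
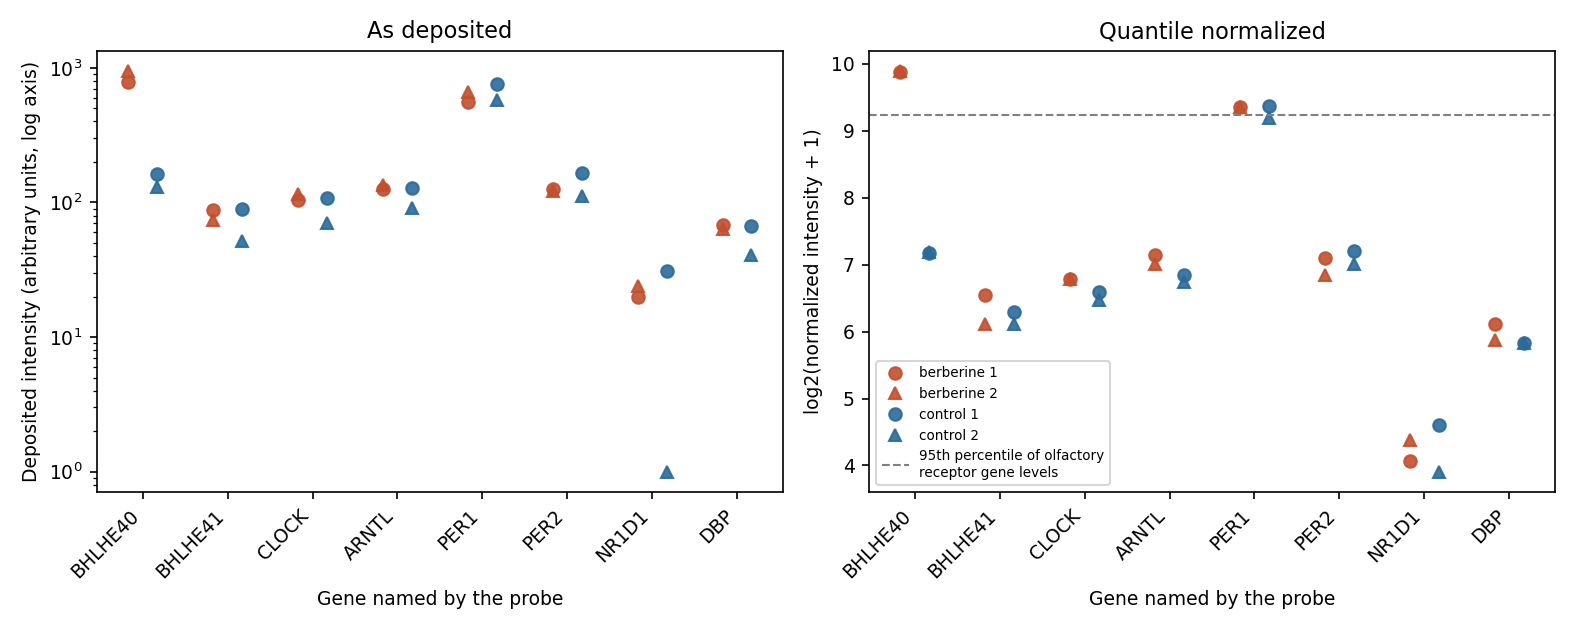
Signal of the 8 clock genes in each sample, as deposited intensity on a log axis (left) and as log2(normalized intensity + 1) (right). Circles are replicate 1 and triangles replicate 2, berberine in orange left of control in blue, and the dashed line is the 95th percentile of olfactory receptor gene levels (9.24). BHLHE40 separates at 9.87 and 9.90 with berberine against 7.17 and 7.19 in control samples, while the groups of the other genes lie close together or overlap.

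BHLHE41 (DEC2), the paralog that shares the repressor's bHLH and Orange domains, did not show a separation of this kind. Deposited intensities were 88 and 74 with berberine and 89 and 52 in control samples. The normalized levels were 6.55 and 6.11 with berberine, against 6.30 and 6.11 in control samples, so the groups overlapped. Its difference was 0.12 (SE 0.196).

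The activators CLOCK and ARNTL had slightly higher signals with berberine. CLOCK read 105 and 115 with berberine and 108 and 71 in control samples as deposited, and 6.78 and 6.79 with berberine against 6.59 and 6.47 in control samples after normalization. ARNTL read 127 and 136 with berberine and 128 and 91 in control samples as deposited, and 7.14 and 7.01 with berberine against 6.85 and 6.74 in control samples after normalization. The normalized groups did not overlap for either gene, but the deposited values did, through the high control 1. The differences were 0.26 for CLOCK (SE 0.113) and 0.28 for ARNTL (SE 0.120), which correspond to 1.20-fold and 1.21-fold higher signals. Both stayed positive in all 13 alternative settings, from 0.17 to 0.32 for CLOCK and from 0.17 to 0.35 for ARNTL. Only the scalings, the pseudocount and leaving out a sample could move these differences, so the sign was fixed in the other settings.

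The PER genes encode the repressors that close the loop, and their signals overlapped between groups. PER1 had deposited intensities of 554 and 657 with berberine and 756 and 581 in control samples. Its normalized levels were 9.35 and 9.35 with berberine and 9.37 and 9.19 in control samples. PER1 has an E-box (above) of the kind that BHLHE40 binds. It was the 1 clock gene whose mean over all samples exceeded the olfactory receptor 95th percentile, as 1626 of all 17778 genes did. Its difference was 0.08 (SE 0.123), and it was negative at -0.14 for the deposited scale and at -0.25 for median-centred values. PER2 read 125 and 122 with berberine and 165 and 111 in control samples as deposited. The normalized PER2 levels were 7.09 and 6.85 with berberine against 7.20 and 7.00 in control samples. PER2 had a difference of -0.13 (SE 0.152). It stayed negative in every setting able to move it, the smallest being -0.0037 without berberine 2.

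NR1D1 and DBP, the nuclear receptor arm and the D-box output of the loop, were dim. NR1D1 had 20 and 24 units with berberine and 31 and 1 in control samples, the value of 1 belonging to control 2. Its normalized levels were 4.07 and 4.38 with berberine and 4.60 and 3.91 in control samples, and 4.36% of olfactory receptor genes had levels below its berberine mean. The difference of -0.03 (SE 0.287) was 1.52 for the deposited scale and 1.40 for median-centred values, so no direction can be given for NR1D1. DBP had 68 and 63 units with berberine and 67 and 41 in control samples. After normalization DBP read 6.12 and 5.88 with berberine and 5.83 in both control samples, which received the same normalized value from deposited values of 67 and 41. The difference of 0.17 (SE 0.135) was positive in every setting able to move it, and the deposited groups overlapped.

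**Figure D2:**
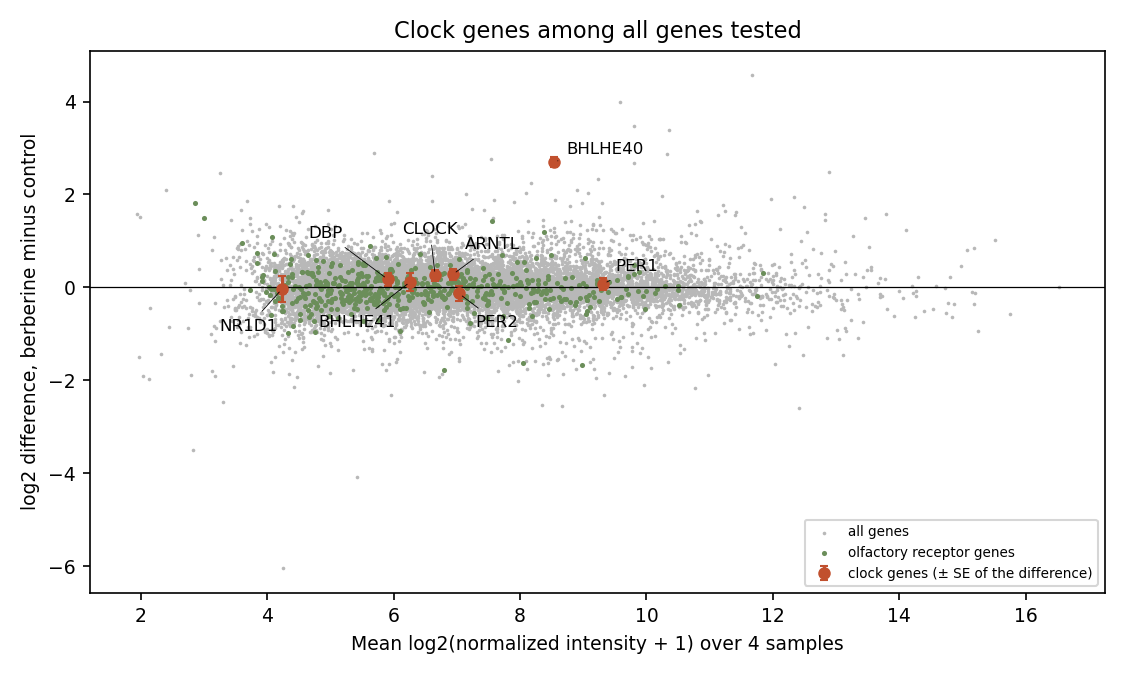
Difference between berberine and control samples (log2, vertical axis) against the mean level over 4 samples (log2 scale, horizontal axis) for all 17778 genes in grey, the 528 olfactory receptor genes in green and the 8 clock genes in orange with the SE of the difference. BHLHE40 sits at 2.70 and the other 7 clock genes between -0.13 and 0.28, inside the cloud of all genes.

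Apart from BHLHE40, the clock genes differed little between groups. The other 7 ranged from -0.13 to 0.28, with a median of 0.12, while the central 95% of all genes ran from -0.75 to 0.78 around a median of -0.01. Over all 8 genes the median was 0.15. In limma, with Benjamini-Hochberg adjustment over all genes and a threshold of 0.05, 1 of the 8 was past the threshold, BHLHE40, upward, where 0.0506% of all genes were called, 0.045% higher and 0.00562% lower. As BHLHE40 was chosen from this contrast, nothing is read from that count. It was 0 of 8 without control 1, control 2, berberine 1 or berberine 2, and 0 with values as deposited, median centring, the replicate block or each probe as its own row.

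The groups did not overlap, with berberine higher, for 4 of the 8 genes (BHLHE40, CLOCK, ARNTL and DBP), where 45% of all genes were apart and 21.7% were apart with berberine higher. As BHLHE40 was chosen for its rise, its separation was given beforehand, and 3 of the other 7 were apart and higher. No clock gene lay lower without overlap, where 23.3% of all genes did. The count over all 8 genes rests on the scaling. With values as deposited it was 1 higher and 0 lower, against 11.4% and 12.7% of all genes. With median centring it was 3 higher and 2 lower (PER1 and PER2), against 15.3% and 31.9% of all genes, a setting in which 32.4% of the separated genes were higher in place of 48.2%.

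Other genes of the clock were taken from lists drawn up by function, and 73 of the 90 sought were measured. In the limma test 0 of 73 passed, against 0.0506% of all genes, while 7 were higher and 8 lower at an unadjusted limma p under 0.05, where 6.68% of all genes were higher and 6.36% lower. When the variance model of limma was allowed to follow signal intensity (the trend test), 2 rose and 0 fell, where 1.46% of all genes were called, 0.962% higher and 0.501% lower. The median difference of the 73 was -0.03. The 2 clock genes past the trend test were the kinase CSNK1A1 and the HLH inhibitor ID2. Of the 528 olfactory receptor genes, 2 also passed the trend test, and the largest rise among all 528 was 1.815.

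CSNK1A1 encodes casein kinase 1 alpha, a relative of the delta and epsilon kinases that phosphorylate PER proteins. It read 11.60 and 11.54 with berberine, against 10.08 and 10.24 in control samples. All treated values lay above all control values, and the signal was bright in every sample. The difference was 1.41 (SE 0.119), a 2.66-fold higher signal, with a limma adjusted p of 0.0928 and 0.00798 in the trend test. Of the other kinases of PER, CSNK1E was at 0.71 (limma adjusted p = 0.223, trend test 0.0842) and CSNK1D at 0.09 (limma adjusted p = 0.75). Among the 12 kinase and phosphatase genes measured, 1 rose and 0 fell in the trend test, where 0.962% of all genes were higher and 0.501% lower, with a median difference of 0.10 against -0.01 for all genes.

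ID2, an HLH protein without a DNA-binding region that holds bHLH factors off DNA, read 9.37 and 9.28 with berberine and 8.18 and 8.42 in control samples. The difference was 1.02 (SE 0.136), a 2.03-fold higher signal, with a limma adjusted p of 0.133 and 0.0318 in the trend test. Its mean of 8.81 lay below the olfactory receptor 95th percentile. It was 1 of 11 measured bHLH-Orange and Id relatives of BHLHE40, whose median difference was 0.10, and the other 10 did not pass. HES1, the Notch-responsive bHLH-Orange repressor, read 8.28 and 8.23 with berberine and 6.88 and 7.79 in control samples, a difference of 0.92 (SE 0.340, limma adjusted p = 0.387). Its groups were apart, but the control samples differed by about as much as the groups. A second HES1 probe, dim at a mean level of 5.23, was at 0.26 (SE 0.181). Neither CSNK1A1 nor ID2 passed the trend test without control 1, control 2, berberine 1 or berberine 2 (0 of 73 in each), nor with median centring (0 of 73).

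The 3 D-box factors that act alongside DBP all had lower signals with berberine, and none passed either test. HLF, an activator of the same PAR bZIP family, read 3.49 and 3.04 with berberine, against 5.04 and 4.69 in control samples. NFIL3, the repressor that competes at D-boxes, read 5.63 and 5.65 with berberine and 6.13 and 6.14 in control samples. TEF, the third PAR bZIP activator, read 5.88 and 5.72 with berberine and 6.14 and 6.11 in control samples. In each gene both treated samples lay below both controls, as was so for 23.3% of all genes, and all of these levels were in the background range. The differences were -1.60 for HLF (SE 0.227, limma adjusted p = 0.147), -0.49 for NFIL3 (SE 0.105, limma adjusted p = 0.247) and -0.33 for TEF (SE 0.118, limma adjusted p = 0.38). They kept their sign with values as deposited, at -0.90, -0.32 and -0.18, but the groups of all 3 then overlapped. With median centring they were at -1.02, -0.44 and -0.30, and the groups of NFIL3 and TEF stayed apart while those of HLF overlapped, in a setting where 31.9% of all genes were apart and lower.

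The remaining clock lists held 0 genes past the limma test or the trend test. Of 7 loop partners (9 sought), NR1D2, the second REV-ERB receptor, had the smallest p, at -0.37 (limma adjusted p = 0.38). PER3, the third PER gene, was bright, at 12.75 and 12.98 with berberine and 12.55 and 12.59 in control samples, with a difference of 0.29 (SE 0.132, limma adjusted p = 0.439). A second PER3 probe, dim at a mean level of 5.07, was at -0.32 (SE 0.296), so the probes differed in direction. Of 7 genes of clock protein turnover, FBXW11, a ubiquitin ligase subunit that recognises phosphorylated PER, was at 0.38 (limma adjusted p = 0.342). Of 12 cofactors the acetyltransferase CREBBP was at 0.47 (limma adjusted p = 0.372). The intervals of these differences are wide with 2 samples a group, so a missed threshold does not show that the levels were alike.

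Output and E-box genes also had 0 members past either test. Of 12 liver output genes, CCRN4L, the rhythmic protein nocturnin of the deadenylase family, was at -0.48 (limma adjusted p = 0.265), and its second probe was at -0.45. The list's median was -0.10, and 0 members lay higher without overlap and 4 lower, against 21.7% and 23.3% of all genes. That count rests on the scaling, as the groups of CCRN4L overlapped with values as deposited. PPARA was at -0.07, but its second, dimmer probe was at 1.12 (SE 0.137), so its probes differed in direction. Of 10 other E-box bHLH activators, MAX, the partner of MYC, was at 0.42 (limma adjusted p = 0.307). HIF1A, the hypoxia factor known to induce BHLHE40, read 8.23 and 8.24 with berberine and 8.14 and 7.98 in control samples, a difference of 0.18 (SE 0.118, limma adjusted p = 0.574). Its dimmer probes differed in direction, at 0.33 (SE 0.118) and -0.17 (SE 0.160). EPAS1, of the same list, read 8.15 and 8.13 with berberine and 6.55 and 7.85 in control samples. Its difference was 0.94 (SE 0.470, limma adjusted p = 0.476), less than the gap between its control samples. The groups of EPAS1 overlapped with median centring, and its second probe was at 0.50 (SE 0.116). The list's median was -0.04.

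**Figure D3:**
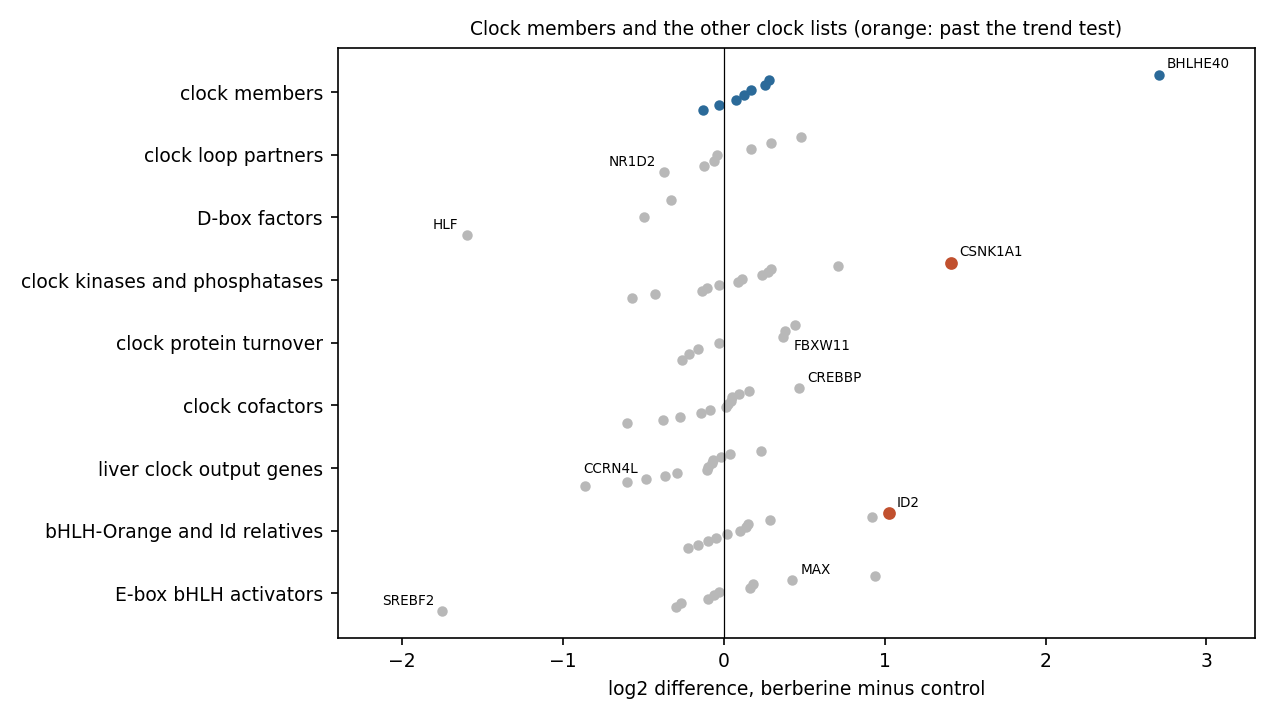
Difference between berberine and control samples (log2, horizontal axis) for each measured gene of the clock members (blue) and of 8 other clock lists (grey), 1 point per gene, with height within a row showing order alone. Orange points are CSNK1A1 at 1.41 and ID2 at 1.02, which passed the trend test, and BHLHE40 lies apart from the other members at 2.70.

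Profiles most like that of BHLHE40 were sought over the 4 samples by the Euclidean distance between log2 levels centred on each gene's own mean. The 5 nearest were HIVEP2, a zinc finger transcription factor (distance 0.090), JAG1, a Notch ligand (0.228), FOS, the AP-1 subunit (0.313), VGF, a secreted neuropeptide precursor (0.389), and TNFRSF12A, the TWEAK receptor (0.411), where the median distance over all genes was 2.73. Their differences ran from 2.33 for TNFRSF12A to 2.76 for HIVEP2. VGF differed most between its control samples, which read 8.73 and 8.20, against 11.13 and 11.16 with berberine. With 4 samples in 2 groups, likeness here means little more than a rise of similar size.

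**Figure D4:**
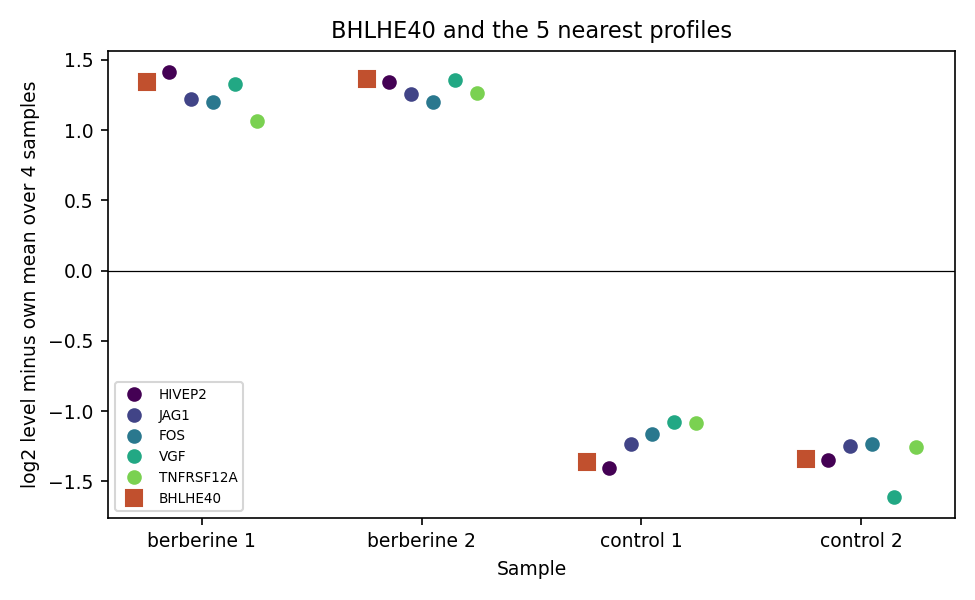
Log2 level minus each gene's own mean over the 4 samples (vertical axis) for BHLHE40 (squares) and the 5 genes with the nearest profiles (circles), by sample. All 6 genes lie above their mean in both berberine samples and below it in both control samples.

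Markers of other cell types were summed as normalized intensity beside these results. Adipocyte markers, of interest because the descriptions name an MDI protocol, summed to 2797 and 2766 over 12 genes in berberine samples and to 5895 and 5522 in control samples. CEBPA, which hepatocytes also express, made up most of that gap, and the other 11 summed to 1717 and 1751 with berberine and 1821 and 1830 in control samples. Those 11 moved in both directions, with FABP4 at 1.00 (limma adjusted p = 0.143) and RETN at -1.20 (limma adjusted p = 0.233). Of all 12, 3 lay higher without overlap and 5 lower, against 21.7% and 23.3% of all genes. CEBPA read 10.08 and 9.99 with berberine and 11.99 and 11.85 in control samples, a difference of -1.89 (SE 0.120, limma adjusted p = 0.0688, trend test 0.00489). Hepatocyte markers (12 genes) summed to 1458 and 1798 with berberine and 2104 and 1959 in control samples. FGG, the fibrinogen gamma chain, was the 1 of them past the trend test, at 5.04 and 4.93 with berberine and 6.72 and 6.81 in control samples, a difference of -1.77 (SE 0.116, limma adjusted p = 0.0688, trend test 0.0163) between levels in the background range. The other 11 hepatocyte markers summed to 1426 and 1768 with berberine and 2000 and 1848 in control samples. The low sum of berberine 1 came mostly from APOA2, at 7.30 there against 9.04 in berberine 2 and 8.92 and 8.98 in control samples. CEBPA and FGG were among the 0.501% of all genes lower in the trend test. Neither passed it with any 1 of the 4 samples left out, where differences ran from -1.975 to -1.818 for CEBPA and from -1.906 to -1.541 for FGG. With values as deposited CEBPA passed the trend test (adjusted p = 1.98e-14) and FGG did not (adjusted p = 0.114). Both passed it with median centring (adjusted p = 0.00586 for CEBPA and 0.0291 for FGG) and with the replicate block (0.0147 and 0.0378). These settings of the trend test were chosen after seeing the data.

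Fibroblast and macrophage markers had 0 genes past either test, and 1 gene carried the higher sum of each list. Fibroblast markers (8 genes) summed to 565 and 551 with berberine and 472 and 476 in control samples. POSTN, the matrix protein periostin, read 7.80 and 7.76 with berberine and 6.65 and 6.99 in control samples, a difference of 0.96 (limma adjusted p = 0.185), and the other 7 summed to 343 and 336 with berberine and 372 and 350 in control samples. Macrophage markers (6 genes) summed to 1049 and 1055 with berberine and to 970 and 894 in control samples. CD14, a lipopolysaccharide co-receptor, read 9.01 and 8.98 with berberine and 8.67 and 8.52 in control samples, a difference of 0.40 (limma adjusted p = 0.332), and the other 5 summed to 534 and 550 with berberine and 563 and 527 in control samples. The part of these shifts in the BHLHE40 signal was not tested.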

How the data were processed

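RNA of 2 berberine-treated and 2 control samples was measured on one-colour arrays. The authors deposited intensity values, linear and rounded to whole numbers, for 26423 probes. How they scanned, background-corrected and scaled the arrays is not stated in the labels or the table. Sample medians were 77 and 85 with berberine and 90 and 62 in control samples, and 269 values of control 2 were below 0.

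Here the arrays were brought to 1 distribution by quantile normalization, negative values were raised to 0, and levels were expressed as log2(value + 1). The platform annotation named 20377 probes, and the probe with the highest mean stood for each of 17778 genes. Genes were fitted with limma 3.58.1 in R 4.3.3 (lmFit and eBayes, 2 residual degrees of freedom, 2-sided), adjusted over all genes. The eBayes step added 2.03 prior degrees of freedom in the main fit, and each SE given is the moderated one. An exact permutation test of 1 value cannot go below 0.333 here. Alternatives were values as deposited, median centring, leaving out the dimmest 30% of genes, a pseudocount of 50, an intensity trend, robust eBayes, other probe rules, the replicate number as a block and each sample left out. The number of arrays limits the precision.

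Members and lists were chosen with earlier results of these data known. The rule named all members, each list's genes past either test or its smallest p, and the 5 nearest profiles. The genes PER3, CSNK1E, CSNK1D, HES1, NFIL3, TEF, HIF1A, EPAS1, PPARA, LPIN1, ID1, SREBF2, ALB, AFP, APOA2, FABP4 and RETN were named outside it. They were added after their values were seen. Older symbols were accepted for 3 genes. Figures used matplotlib 3.10.9 in Python 3.11.15.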

Additional observations from a re-analysis of the deposited data

How the results depend on the processing

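Only the scalings, the pseudocount and the left-out samples could move the BHLHE40 difference. It kept its direction in all 13 planned settings. It was 2.56 with values as deposited, 2.45 with median centring, 2.36 with a pseudocount of 50, and 2.66 to 2.75 with 1 sample left out. Its call was lost in 8 of them. The count of clock genes called was 0 with values as deposited, median centring, each probe as its own row, the replicate block, and 1 sample left out (0 to 0), in place of 1. With the intensity trend, in settings chosen after seeing the data, it was 1 with values as deposited, median centring or the replicate block and 0 to 0 with 1 sample left out. The count of the other clock genes called was 1 without the dimmest 30% of genes (CSNK1A1), 2 with a pseudocount of 50 and 2 with an intensity trend (CSNK1A1 and ID2). With the intensity trend it was 2 with values as deposited (CSNK1A1 upward and SREBF2 downward), 0 with median centring, 1 with the replicate block (CSNK1A1) and 0 to 0 with 1 sample left out. The count over all genes was 9, and 2 with values as deposited, 0 with median centring, 138 without the dimmest 30% of genes, 251 with a pseudocount of 50, 260 with an intensity trend, 0 with each probe as its own row, 0 with the replicate block and 0 to 0 with 1 sample left out. Same-numbered samples' deviations correlated at 0.0904 across genes, and no label pairs them, so the numbers were not taken as pairs. The cause of these changes was not tested. Neither the deposited scale nor median centring moved the median of all genes by more than 0.1. NR1D1 was among the dimmest 30% of genes, so 7 of the 8 clock genes remained when these were left out. Signals near those of the olfactory receptor genes limit what can be read for every clock gene, though less so for BHLHE40 with berberine. PER1, at a mean of 9.32, lay just above the 95th percentile of 9.24, and its control 2 value of 9.19 lay below it.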

Other observations

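ID1, another Id protein, differed between replicate numbers and not between groups. It read 7.60 in berberine 1 and 9.11 in berberine 2, and 7.88 in control 1 and 9.28 in control 2. Replicate 2 exceeded replicate 1 by more than 1 on the log2 scale in both groups for 103 of 17778 genes, the opposite held for 13, and gaps of that size had opposite signs in 43.

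SREBF2, the sterol-responsive bHLH factor that binds E-box and sterol elements, read 8.15 and 7.87 with berberine and 8.70 and 10.82 in control samples. Its difference of -1.75 (SE 0.758) did not pass (limma adjusted p = 0.429), and most of it came from control 2. The trend test with values as deposited, chosen after seeing the data, gave a limma adjusted p of 2.89e-09 for it, from -1.92. Its deposited control values were 480 and 1795, so that p-value rests largely on a variance borrowed from other genes. Nothing is read from it.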
